A study of Mus musculus with 14 samples.

Results

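Myelin genes were followed in cultured mouse neural stem cells (NSC) as these were differentiated with or without opioid drugs. The 9 genes were taken by name, and all 9 were found among the 29713 genes of the deposited tables. They are Mbp, Mog, Mag, Cnp, Mobp, Cldn11, Ugt8a and Opalin, which encode parts of myelin or of the oligodendrocyte surface, or an enzyme of a myelin lipid, and Myrf, which encodes a transcription factor that switches on myelin genes.

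The 14 libraries came from NSC of the OG2 mouse strain, whose cells carry a green fluorescent reporter of Pou5f1, and every group shares that background. Of these, 12 libraries at passage 8 covered 4 stages, undifferentiated cells and cells differentiated for 2, 4 or 8 days, under 3 treatments each. The treatments were naloxone, an antagonist of opioid receptors, DAMGO, a peptide agonist of the mu opioid receptor, and a control named NC in the labels. The other 2 were NSC at passage 8 and at passage 13 with no named treatment, which the design text sets as negative controls. Each combination had 1 library, and the labels give no drug dose, culture medium, animal number or sex, so all libraries may stem from a single cell line. A mean ± SD for a stage is therefore over its 3 libraries, 1 per treatment, and p-values measure only the spread between these libraries.

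Myelin is the multilayered membrane that oligodendrocytes wrap around axons in the central nervous system. Neural stem cells give rise to oligodendrocyte precursors, which carry Pdgfra, Sox10 and Olig2, pass through a short-lived newly formed stage marked by Gpr17, Bcas1 and Enpp6, and then express myelin genes. Sox10 acts with Olig2 to turn on Myrf, and Myrf acts with Sox10 on many myelin genes, binding the sequence CTGGCAC or CTGGTAC. Mbp, which compacts the membrane, and Cnp come up early, whereas Mog, Mobp and Opalin belong to mature cells. Libraries of whole cultures cannot tell fewer cells of a type from less RNA per cell, and this holds for every value below.

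The windows before the start of the member genes were searched for the Myrf sequence and for AACAAAG and AACAATG, which Sox factors bind, on both strands. RefSeq promoter windows on GRCm38.p6, from 250 bases before to 50 after an annotated start, were found for 7 of the 9 members, and Mbp and Myrf were not searched. The 250 bases before the start are shown for 3 members that hold the Myrf sequence there, read 5′ to 3′ on the strand of the gene. Capitals mark a match to a searched motif, and no matches overlapped each other.

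Cnp, chr11:100574689-100574938, plus strand: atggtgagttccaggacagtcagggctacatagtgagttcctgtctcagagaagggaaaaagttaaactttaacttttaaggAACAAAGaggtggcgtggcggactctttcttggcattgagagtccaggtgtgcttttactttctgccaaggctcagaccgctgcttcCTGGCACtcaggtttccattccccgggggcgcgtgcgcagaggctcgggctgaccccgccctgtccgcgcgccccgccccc
Mag, chr7:30914864-30915113, minus strand: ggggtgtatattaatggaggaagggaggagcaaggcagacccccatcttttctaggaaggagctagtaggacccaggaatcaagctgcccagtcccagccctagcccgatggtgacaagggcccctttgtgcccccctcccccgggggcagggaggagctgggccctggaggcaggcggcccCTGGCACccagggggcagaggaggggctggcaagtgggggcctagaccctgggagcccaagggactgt
Mog, chr17:37023399-37023648, minus strand: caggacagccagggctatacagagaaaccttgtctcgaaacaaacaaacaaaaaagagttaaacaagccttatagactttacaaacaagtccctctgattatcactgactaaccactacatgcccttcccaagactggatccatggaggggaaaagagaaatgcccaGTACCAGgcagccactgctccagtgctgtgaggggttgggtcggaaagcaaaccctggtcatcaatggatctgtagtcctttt

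In the Cnp window CTGGCAC began 81 bases before the start and AACAAAG 168 bases before it. In the Mag window CTGGCAC began 68 bases before the start, and a second annotated Mag start held the same copy. The window of a further annotated Mag start held none of the motifs. The Mog match was CTGGTAC on the opposite strand, 83 bases before the start, so that it reads GTACCAG above. Opalin held CTGGCAC on the opposite strand 36 bases after its start, Mobp held 4 copies of AACAAAG on the opposite strand and no Myrf sequence, and Cldn11 and Ugt8a held none of the motifs in these windows. Over all 32851 promoter windows of the table, 7.10% held CTGGCAC or CTGGTAC and 9.36% held AACAAAG or AACAATG. A match describes the letters and was not measured as binding.

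The libraries held 4143030 to 9070533 estimated counts. Levels below are TPM, the share of all transcripts after scaling by transcript length, and changes are log2 changes ± SE fitted to the counts with edgeR, whose adjusted p-values (Benjamini-Hochberg) are given throughout and were called at 0.05. NSC markers were high in the 5 undifferentiated and reference libraries, with Sox2 at 243 to 302 TPM, Nes at 536 to 630 TPM, Vim at 3376 to 3724 TPM and Fabp7 at 5775 to 6275 TPM, and Pax6 was at 25.1 to 31.2 TPM. In the day 8 libraries Nes was at 62.2 to 88.1 TPM and Fabp7 at 543 to 1286 TPM, while Sox2 was at 294 to 308 TPM, Vim at 6858 to 7370 TPM and Pax6 at 47.8 to 59.6 TPM. The depth limits the rarer members, since 3 counts in a library equalled 0.354 to 0.693 CPM, the count relative to the scaled library total. Cnp, Cldn11, Ugt8a and Myrf had at least 10 counts in each of the 14 libraries. Mbp reached 10 counts in 10 libraries and Mag in 5, so these genes entered the test through the later stages, where they are high. Mog, Mobp and Opalin, with 23, 5 and 41 counts over all libraries, did not enter it.

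Myelin genes came up in steps. Cnp rose at day 2, when the others were near their starting level. At day 4 Mbp, Mag, Ugt8a, Myrf and Cldn11 were higher than in undifferentiated cells, while Cnp had fallen from its day 2 level and was still higher than at the start. By day 8 Mbp and Cnp were still higher than in undifferentiated cells, Ugt8a and Myrf had fallen from day 4, and Mog, Mobp and Opalin stayed at or below 1.67 TPM in every library. At day 4 against undifferentiated cells all 6 tested members were higher, where 31.1% of the 13413 genes tested were higher and 30.7% lower. At day 2 the members higher were 2 of 6, Cnp and Mbp, against 33.4% of all genes higher and 35.6% lower. At day 8 they were 4 of 6, Mbp, Mag, Cnp and Myrf, against 41.5% higher and 38.3% lower. Of the 4 members with at least 10 counts in every library, 1 was higher on day 2, 4 were higher on day 4 and 2 on day 8.

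**Figure D1:**
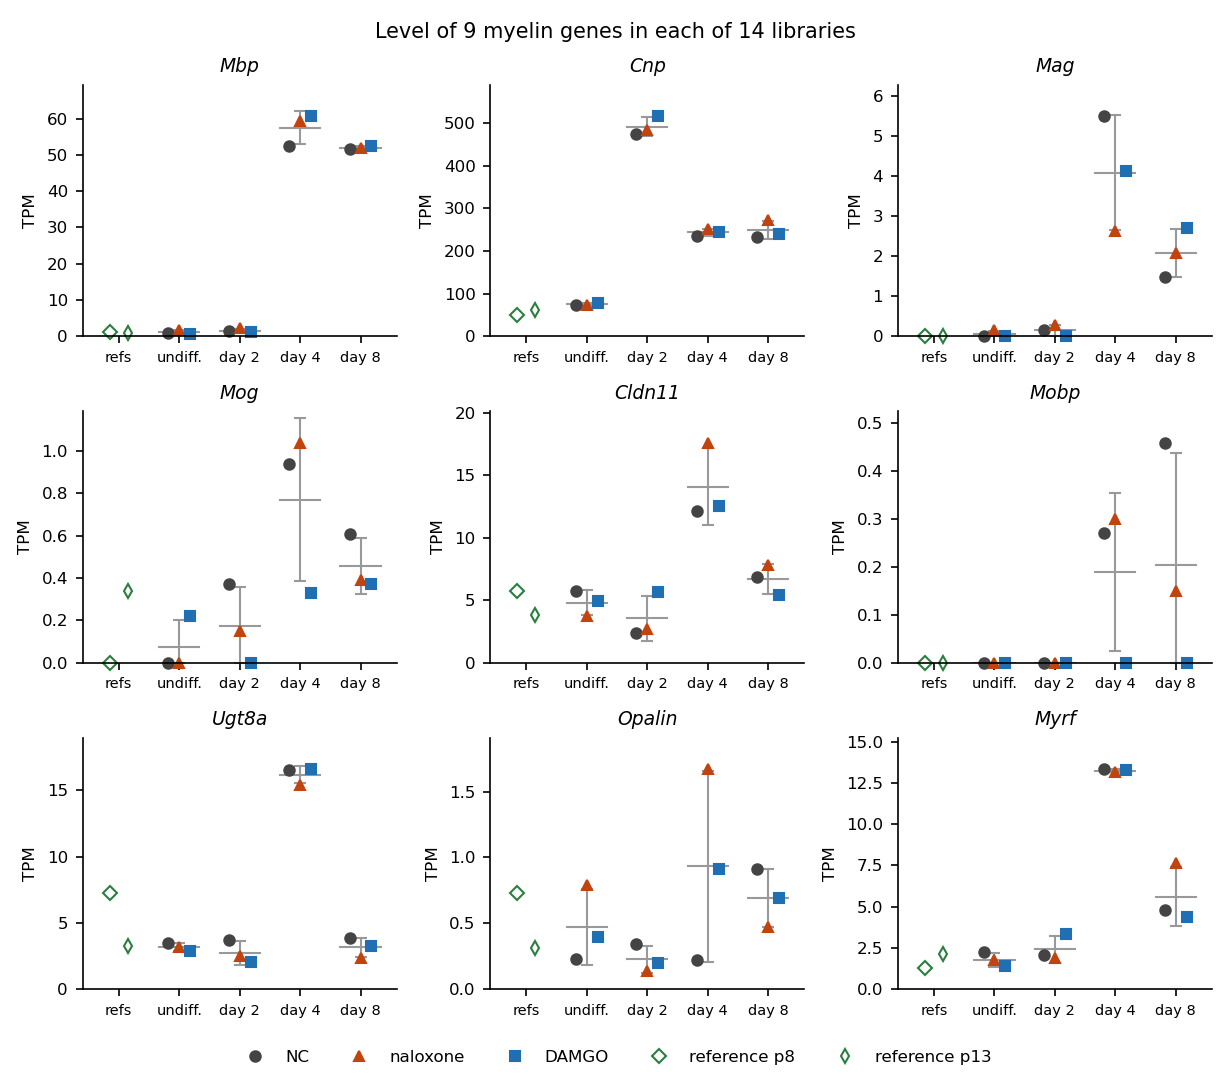
Level of each of the 9 myelin genes in TPM (vertical axes, each from 0 and to its own scale) in the 2 reference libraries and by stage. Points are libraries, coloured and shaped by treatment, and grey bars are the mean ± SD of the 3 libraries of a stage, ending at 0 where the SD exceeds the mean. Cnp is highest at day 2, Mbp stands at 51.7 to 60.8 TPM at day 4 and day 8 and at 2.11 TPM or less before, and Ugt8a and Myrf peak at day 4.

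Among the structural proteins, Mbp, the myelin basic protein that holds the inner faces of the membrane together, was low up to day 2 and high from day 4. It was at 0.83, 1.61 and 0.65 TPM in the undifferentiated NC, naloxone and DAMGO libraries and at 1.37, 2.11 and 1.07 TPM at day 2 in the same order. It then stood at 52.4, 59.5 and 60.8 TPM at day 4 and at 51.7, 52.1 and 52.6 TPM at day 8. The 6 later libraries lay far above the 6 earlier ones, with no overlap, while the undifferentiated and day 2 libraries overlapped. The fitted change at day 4 against undifferentiated cells was 5.13 ± 0.21 (adjusted p = 1.19e-08), about 34.9-fold, and at day 8 it was 5.46 ± 0.21 (adjusted p = 3.58e-09).

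The early step of Mbp is small and rests on few counts. At day 2 it had 16, 23 and 8 counts against 4, 11 and 6 in undifferentiated cells, and the change was 0.82 ± 0.32 (adjusted p = 0.0391). DESeq2 and limma on TPM did not call it, nor did the fit without any of 8 libraries (NC and DAMGO at the undifferentiated stage, NC and naloxone at day 2, all 3 at day 4, and NC at day 8), with adjusted p between 0.0135 and 0.219 over all alternatives. From day 4 to day 8 the direction for Mbp depends on the scale. The count model gave 0.33 ± 0.13 higher at day 8 (adjusted p = 0.0431), a call lost without any of 6 libraries (the undifferentiated DAMGO library, those of day 4, and NC and DAMGO at day 8), whereas log2(TPM + 1) gave -0.14. The median of all tested genes moved by -0.29 between these stages on the TPM scale and by 0.07 in the count model, and by at most 0.20 in either direction in the other stage comparisons.

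Cnp, the cyclic nucleotide phosphodiesterase of non-compact myelin, was the most abundant member at each stage. It was at 73.1, 72.5 and 77.0 TPM in undifferentiated cells (NC, naloxone, DAMGO), at 475, 485 and 518 TPM at day 2, at 235, 252 and 244 TPM at day 4 and at 234, 274 and 239 TPM at day 8. The day 2 libraries were above all others and the undifferentiated ones below all differentiating ones, without overlap, while day 4 and day 8 overlapped. The change at day 2 was 2.78 ± 0.07 (adjusted p = 1.46e-09), about 6.86-fold. Cnp then fell by 1.20 ± 0.07 from day 2 to day 4 (adjusted p = 1.24e-06). From day 4 to day 8 it was higher by 0.41 ± 0.07 in the count model (adjusted p = 0.000421), against 0.03 on the TPM scale (adjusted p = 0.743), so this step is not called on both scales.

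Mag, the myelin-associated glycoprotein that faces the axon, went from near absence to a low level. In the order NC, naloxone and DAMGO, it had 0, 1 and 0 counts before differentiation and 1, 2 and 0 counts on day 2, then 19, 13 and 9 counts on day 4 and 11, 20 and 15 counts on day 8. The early and the late libraries did not overlap. The 41 counts of day 4 against 1 count in undifferentiated cells gave a ratio of 42.7 with a 95% counting interval of 7.24 to 1726, and day 8 gave 38.6 (6.60 to 1559). In TPM Mag was at 5.51, 2.63 and 4.13 at day 4 and at 1.49, 2.07 and 2.70 at day 8. The transcript length that TPM divides by was 1416, 2139 and 1274 bases at day 4 and 2418, 2083 and 1756 bases at day 8. The count model gave -0.12 ± 0.37 from day 4 to day 8 (adjusted p = 0.780). In 5 libraries without a Mag count, the level allowed by 0 counts over all of them was up to 0.101 CPM.

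Cldn11, the claudin that seals the layers of the sheath, was highest at day 4. It was at 5.72, 3.70 and 4.95 TPM in undifferentiated cells, at 2.34, 2.70 and 5.61 TPM at day 2, at 12.1, 17.6 and 12.5 TPM at day 4 and at 6.81, 7.79 and 5.38 TPM at day 8. The day 4 libraries lay above all others, and the remaining stages overlapped. The change at day 4 was 1.37 ± 0.33 against undifferentiated cells (adjusted p = 0.00395) and 1.80 ± 0.33 against day 2 (adjusted p = 0.00162). The value at day 8 against day 4, -0.67 ± 0.30, did not pass (adjusted p = 0.0679), nor did day 8 against undifferentiated cells at 0.70 ± 0.33 (adjusted p = 0.0748). Over the alternatives these adjusted p-values ranged from 0.0119 to 0.326 and from 0.0264 to 0.295. The fall was called on both TPM scales, with stage alone in the model, and without the NC or the DAMGO library of day 2, and the rise over undifferentiated cells without the undifferentiated NC, day 2 NC, day 2 DAMGO or day 8 DAMGO library. Without the DAMGO library of day 2, Cldn11 was also called lower at day 2 than in undifferentiated cells, with a change of -0.96 (adjusted p = 0.0259).

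The remaining structural members, Mog, Mobp and Opalin, stayed near the limit of detection. Mog, a glycoprotein of the outermost myelin surface, had 0, 0 and 1 counts before differentiation and 2, 1 and 0 counts on day 2, then 4, 4 and 1 counts on day 4 and 3, 3 and 2 counts on day 8. The ratio of day 4 to undifferentiated cells was 9.37 with a counting interval of 1.30 to 411, and that of day 8 was 6.72 (0.901 to 298), which includes no change. Opalin, a membrane protein of mature oligodendrocytes, had 1 to 7 counts in each of the 14 libraries, and its ratio to undifferentiated cells was 1.64 (0.579 to 4.98) on day 4 and 1.56 (0.578 to 4.62) on day 8. Against day 2, its 11 counts of day 4 stood beside 4 counts, a ratio of 3.54 (1.05 to 15.2), the only one of its 5 stage ratios whose counting interval excluded 1. Mobp, a small basic protein of compact myelin, had no count in 10 libraries and 1, 1, 2 and 1 in the NC and naloxone libraries of day 4 and day 8. Over the 10 libraries without a count its level was at most 0.0497 CPM, and no fold can be given. A change in Mobp was not detectable at this depth.

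Ugt8a encodes the enzyme that makes galactosylceramide, the main glycolipid of myelin, and it peaked at day 4. It was at 3.52, 3.20 and 2.85 TPM in undifferentiated cells, at 3.75, 2.49 and 2.02 TPM at day 2, at 16.5, 15.4 and 16.6 TPM at day 4 and at 3.85, 2.38 and 3.26 TPM at day 8. The day 4 libraries stood apart from all others, and the other stages overlapped. The change was 2.15 ± 0.18 at day 4 against undifferentiated cells (adjusted p = 2.53e-06), and Ugt8a then fell by 1.98 ± 0.17 from day 4 to day 8 (adjusted p = 6.60e-06). Day 8 did not pass the test against undifferentiated cells, with a change of 0.17 and a 95% interval of -0.28 to 0.63.

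Myrf, the regulator, followed the same course with a smaller fall. It was at 2.23, 1.75 and 1.39 TPM in undifferentiated cells, at 2.05, 1.88 and 3.37 TPM at day 2, at 13.3, 13.1 and 13.3 TPM at day 4 and at 4.82, 7.64 and 4.36 TPM at day 8. The 3 day 4 libraries had an SD of 0.103 TPM, on 197, 181 and 136 counts (NC, naloxone, DAMGO). This is closer than counting error alone would give, so it does not measure precision. The ratio of naloxone to NC at day 4 had a 95% counting interval of 0.830 to 1.26. Each of the day 8 libraries lay between those of day 4 and the earlier ones. The change was 2.80 ± 0.20 at day 4 (adjusted p = 7.65e-07) and 1.92 ± 0.21 at day 8 (adjusted p = 1.11e-05), both against undifferentiated cells. Myrf fell by 0.89 ± 0.17 from day 4 to day 8 (adjusted p = 0.000915). At day 2, when Cnp was at its highest, Myrf did not pass the test, with a change of 0.42 and a 95% interval of -0.10 to 0.94.

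**Figure D2:**
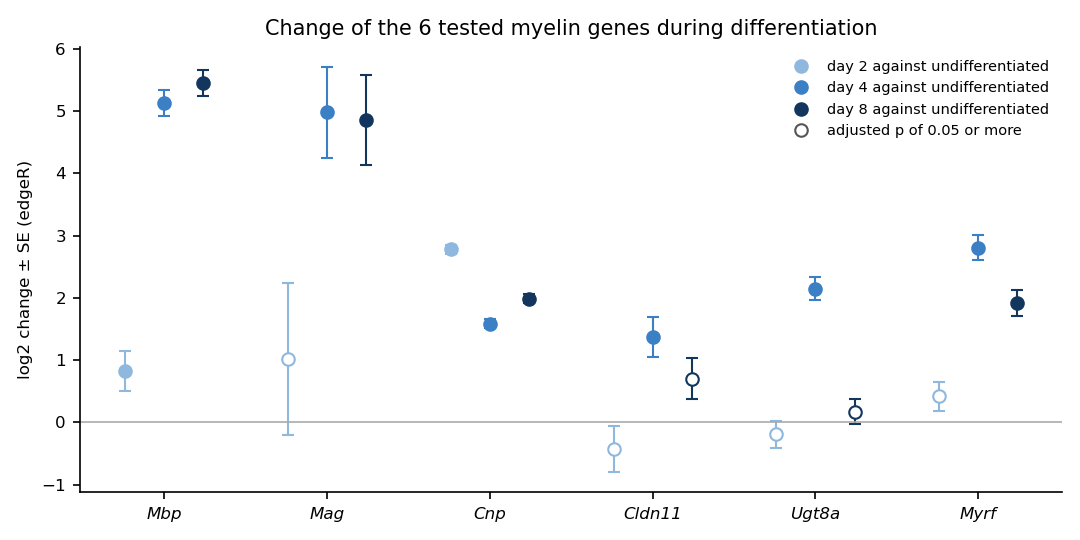
Fitted log2 change ± SE (vertical axis) of the 6 tested members at day 2, day 4 and day 8 against undifferentiated cells. Filled points passed an adjusted p of 0.05 and open points did not. Cnp has its largest change at day 2, and Mbp and Mag change by about 5 log2 units at day 4 and day 8.

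Between neighbouring differentiation stages the members split. From day 2 to day 4, 5 of the 6 tested members rose and Cnp fell, where 26.8% of all genes were higher and 24.5% lower. Mbp and Mag, which are among the 5, entered the test through the later stages, where they are high. Of the members with at least 10 counts in every library, Cldn11, Ugt8a and Myrf rose and Cnp fell. From day 4 to day 8, Mbp and Cnp were called higher and Ugt8a and Myrf lower, where 36.7% of all genes were higher and 31.1% lower, and Mag and Cldn11 did not pass. On the TPM scale neither higher call of this step held, with -0.14 for Mbp and 0.03 for Cnp (adjusted p = 0.743).

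The make-up of the myelin transcripts shifted with the order of appearance. The 9 members summed to 85.6 ± 1.85 TPM in undifferentiated cells, 503 ± 23.5 TPM at day 2, 351 ± 13.6 TPM at day 4 and 320 ± 23.1 TPM at day 8 (SD, n = 3). Cnp made up 85.4 to 88.0% of the sum before differentiation, 97.7 to 98.0% on day 2, then 69.2 to 69.9% on day 4 and 76.8 to 78.9% on day 8. Mbp supplied 0.202 to 0.427% at day 2 and 15.6 to 17.3% at day 4. The ratio of Cnp to Mbp in TPM was thus 45.1 to 118 in undifferentiated cells, 230 to 484 at day 2 and 4.01 to 4.49 at day 4. These ranges of the libraries did not overlap. The transcript length that the TPM of Mbp divides by was 3496, 2679 and 2624 bases at day 2 (NC, naloxone, DAMGO). At day 4 it was 2026, 1867 and 1777 bases. In the count model Mbp rose 19.7-fold from day 2 to day 4.

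In undifferentiated cells the order of mean TPM was Cnp, Cldn11, Ugt8a, Myrf, Mbp, Opalin, Mog, Mag and Mobp, and the same order was found at day 2. Only Cnp stood clear of its neighbour in that order at both stages, while Cldn11 and Ugt8a, Ugt8a and Myrf, and Myrf and Mbp overlapped at day 2. At day 4 the order began with Cnp, Mbp, Ugt8a, Cldn11 and Myrf, and Ugt8a overlapped with Cldn11 and Cldn11 with Myrf. At day 8 Cldn11, Myrf and Ugt8a followed Mbp, with overlap between Cldn11 and Myrf.

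Genes with the most similar pattern were ranked by the Pearson correlation of log2 CPM over the 14 libraries, among 11612 genes. Genes with a predicted name or no symbol were left out of the ranking. The libraries share stages and depth, so the values are descriptions. Nearest to Mbp were Gramd1b (r = 0.984), Ptpdc1 (0.978) and Glis3 (0.977), and Gramd1b had mean levels of 6.83 and 9.24 TPM in undifferentiated and day 2 cells and of 39.4 and 36.8 TPM in day 4 and day 8 cells. Nearest to Cnp were Scamp5 (0.992), Rgs12 (0.992) and Os9 (0.990). Myrf was nearest to Rnf24 (0.970) and to Enpp6 (0.968) and Bcas1 (0.965), which mark newly formed oligodendrocytes. Ugt8a was nearest to the neuronal RNA-binding protein gene Elavl3 (0.927), then Epha3 (0.918) and Trim2 (0.912), and Cldn11 to Fam184b (0.853), Spryd7 (0.834) and Sertad2 (0.830). Among the members, Mbp and Myrf had r = 0.917 and Cldn11 and Myrf 0.816, whereas Cnp and Ugt8a had -0.09.

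The regulators upstream of myelin moved at different times. Sox10, which activates Myrf and myelin genes, had mean levels of 1.61 ± 0.0624 TPM in undifferentiated cells, 21.2 ± 1.63 TPM at day 2, 54.1 ± 4.42 TPM at day 4 and 23.8 ± 2.52 TPM by day 8, with a change of 3.75 ± 0.16 already at day 2 (adjusted p = 2.58e-08). Olig2, which specifies the lineage, was at 679 ± 5.07 TPM in undifferentiated cells and fell by 1.37 ± 0.07 by day 8 (adjusted p = 4.70e-08). Olig1 rose by 0.75 ± 0.07 at day 2 (adjusted p = 5.71e-06) and was lower by day 8, with a change of -1.05 ± 0.07 (adjusted p = 2.64e-07). Nkx2-2, a factor of the step from precursor to oligodendrocyte, rose by 1.23 ± 0.15 at day 4 (adjusted p = 4.99e-05) and fell by 1.83 ± 0.16 from day 4 to day 8 (adjusted p = 5.80e-06).

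The gene lists below are read against all genes, of which 33.4% were higher and 35.6% lower on day 2, 31.1% and 30.7% on day 4, and 41.5% and 38.3% on day 8. As with Mbp and Mag, some list genes with few counts before differentiation entered the test through later stages, where they are high. The lists also share genes, so their counts are not separate evidence. Sox10, Olig1 and Olig2 are both activators and precursor genes. Among the genes of newly formed oligodendrocytes, Tcf7l2 is also an activator and Gpr17 also an inhibitor. Of 14 tested activators of myelination, 8 were higher and 3 lower on day 2, 5 higher and 3 lower on day 4, and 4 higher and 10 lower on day 8, with medians of 0.31, 0.13 and -0.94 against -0.01, -0.00 and 0.05 over all genes. From day 4 to day 8, 11 of the 14 fell and 1 rose, where 31.1% of all genes were lower and 36.7% higher. Tcf7l2, which is transiently used by differentiating oligodendrocytes, was higher by 2.35 ± 0.15 at day 4, Sox8 by 1.90 ± 0.09 at day 2, and Zfp24 fell by 1.87 ± 0.19 by day 8 (adjusted p of 3.33e-07, 3.23e-08 and 7.27e-06). Of 11 inhibitors of myelination, 9 were higher and 1 lower on day 2, 8 and 1 on day 4, and 8 and 2 on day 8, with medians of 1.23, 1.53 and 1.71, so that the higher ones took a larger share of the list than of all genes at each of these stages. From day 4 to day 8, 5 of the 11 rose and 5 fell, with a median of -0.12. Hes1 went from 56.6 ± 2.66 TPM in undifferentiated cells to 21.8 ± 1.59 TPM at day 8, and Sox5 from 41.5 ± 3.97 to 9.20 ± 1.71 TPM. Id4, which holds back differentiation factors, was higher by 7.61 ± 0.17 at day 8 and Daam2, which promotes Wnt signalling and holds back the lineage, by 6.43 ± 0.13. Hes5, a Notch effector, rose by 4.03 ± 0.17 at day 2, and Tmem98, which binds Myrf and blocks its cleavage, rose by 1.23 ± 0.13 at day 2 and 1.71 ± 0.13 at day 8, and at day 4 its change of 0.29 ± 0.14 did not pass.

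Of 10 genes of newly formed oligodendrocytes, 7 were higher and 2 lower on day 4, against 31.1% and 30.7% of all genes, and 8 were higher and 2 lower on day 8, against 41.5% and 38.3%. Bmp4, Neu4 and Enpp6 had no count in the 3 undifferentiated libraries, and Tmem163 had 8 over them. These 4 genes entered the test through the later stages, where they are high, which limits the comparison with all genes. Enpp6, a choline phosphodiesterase of this stage, had no count before differentiation and 1 count on day 2, then 360 counts on day 4 and 86 counts on day 8, or 18.8 ± 0.936 TPM at day 4 and 3.57 ± 1.04 TPM at day 8. Gpr17, a receptor that delays myelination, was higher by 7.48 ± 0.14 at day 4 (adjusted p = 2.06e-10) and Bcas1 by 3.06 ± 0.09 (adjusted p = 1.92e-09). From day 4 to day 8, 6 of the 10 fell and 1 rose, where 31.1% of all genes were lower and 36.7% higher, with a median of -0.65 against 0.07 over all genes, and Gpr17 fell by 1.30 ± 0.10 and Enpp6 by 2.38 ± 0.21. Of 9 tested precursor genes, 7 were higher and 1 lower on day 2, 4 higher and 3 lower on day 4, and 4 higher and 5 lower on day 8, where the share of higher ones at day 8 was near that of all genes. Pdgfra, the growth factor receptor of precursors, was higher by 4.50 ± 0.08 at day 4 (adjusted p = 1.82e-10). Cspg4, another gene of this list, was lower by 0.76 ± 0.10 already at day 2 (adjusted p = 7.18e-05). It was at 45.3 ± 3.65 TPM in undifferentiated cells and 10.4 ± 1.36 TPM at day 8, and Ptprz1 at 528 ± 20.7 and 121 ± 30.6 TPM.

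**Figure D3:**
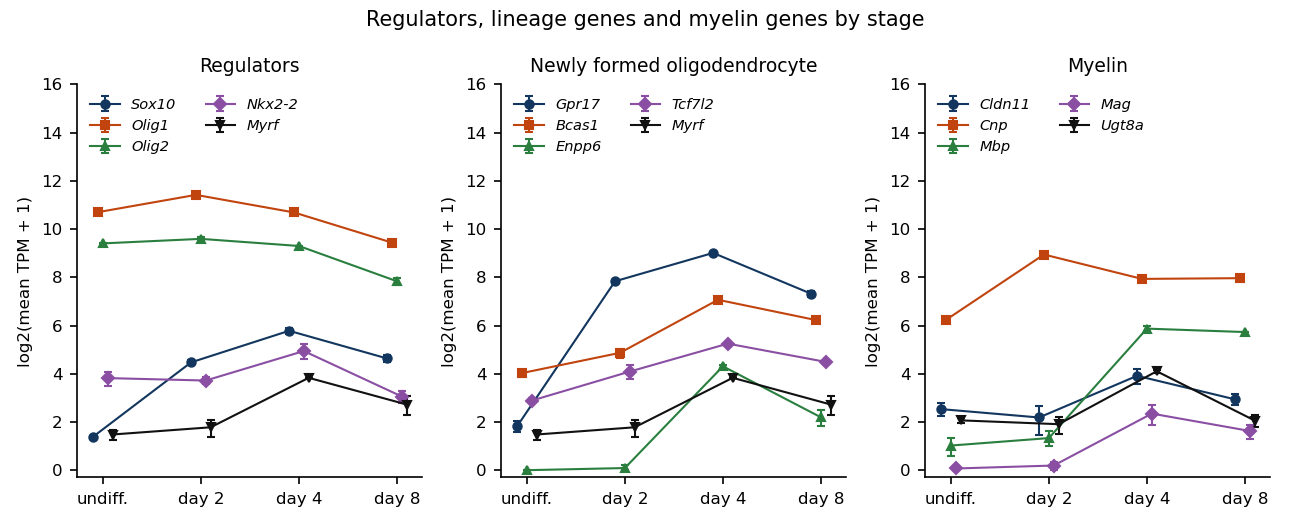
Mean level of regulators, genes of newly formed oligodendrocytes and myelin genes by stage, as log2(mean TPM + 1), with bars of 1 SD over the 3 libraries of a stage. Sox10, Gpr17, Enpp6, Myrf and Ugt8a are highest at day 4, Cnp at day 2, and Olig2 is lowest at day 8.

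A further list held genes linked to myelin, and not all of them encode structural proteins of myelin. Of its 16 tested genes, 13 were higher and 2 lower on day 2, and 14 were higher and 1 lower on day 4. On day 8, 11 were higher and 2 lower. The medians were 1.85, 1.19 and 1.88, where 33.4%, 31.1% and 41.5% of all genes were higher. Cmtm5 was higher by 5.80 ± 0.15, Cd82 by 4.41 ± 0.25 and the actin-severing protein gene Gsn by 3.07 ± 0.11 at day 8. Tspan2 went from 5.93 ± 1.48 TPM in undifferentiated cells to 0.94 ± 0.22 TPM at day 8, and Omg from 15.9 ± 1.03 to 8.00 ± 2.78 TPM. From day 4 to day 8, 7 of the 16 rose and 6 fell, where 36.7% of all genes were higher and 31.1% lower. Among those with too few counts to be tested were Ermn, Hapln2, Gjb1 and Gpr37. Of 9 genes of myelin lipids and metabolism, 4 were higher and 3 lower on day 2, 5 higher and 4 lower on day 4, and 5 higher and 2 lower on day 8, a mixed list that moved in both directions at each stage as all genes did. Gal3st1, which turns galactosylceramide into sulfatide, was higher by 4.98 ± 0.24 at day 8 (adjusted p = 2.17e-08), when Ugt8a was not called higher, and the carbonic anhydrase gene Car2 fell by 1.89 ± 0.13 by day 4 (adjusted p = 4.43e-07).

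Markers of other cell types changed over the same stages. The 9 astrocyte markers summed to 601 to 627 TPM in undifferentiated libraries, 3846 to 3857 TPM at day 4 and 12421 to 13207 TPM at day 8, and none was without counts. Gfap, the astrocyte filament protein, was higher by 11.9 ± 0.28 at day 8 (adjusted p = 1.97e-10). Most of the day 8 sum was Gfap and Clu, at 5899 ± 289 and 3985 ± 314 TPM. Of the 9 markers, 8 were higher and 0 lower on day 8, against 41.5% and 38.3% of all genes. Slc1a2 was at 28.05 ± 1.29 TPM in undifferentiated cells, 113 ± 5.17 TPM on day 4 and 28.35 ± 4.08 TPM on day 8. The 7 neuronal markers summed to 558 to 573 TPM in undifferentiated libraries, to 385 to 886 TPM on day 2, 1013 to 1063 TPM on day 4 and 250 to 306 TPM on day 8. That sum was carried by Map2, a microtubule protein gene, at 527 ± 6.78 TPM in undifferentiated cells and 133 ± 28.4 TPM on day 8 (SD, n = 3), while 4 of the 7 markers were higher on day 8 and 2 lower, with a median of 2.62. Among the higher ones was Tubb3, a neuronal tubulin gene, at 19.5 ± 0.339 TPM in undifferentiated cells and 103 ± 9.45 TPM on day 8, with a change of 2.62 ± 0.12 (adjusted p = 1.23e-08). The 10 Schwann cell and neural crest genes summed to 69.7 to 81.2, 15.2 to 20.4, 47.3 to 55.7 and 145 to 158 TPM, with Foxd3 at 0 throughout, and Drp2, a dystrophin-related protein gene, was higher by 5.45 ± 0.12 at day 8. Of the 6 of these that could be tested, 3 were higher and 2 lower on day 8 with a median of 0.70, and Egr2, a regulator of myelination in Schwann cells, was at 12.2 ± 1.43 TPM before differentiation and 0.463 ± 0.436 TPM on day 8 (adjusted p = 1.24e-07). The 5 genes of fibroblasts and meninges summed to 0.360 to 1.34 TPM in undifferentiated libraries, 42.7 to 46.0 TPM on day 4 and 29.1 to 35.1 TPM on day 8, mostly Pdgfrb at the later stages, a growth factor receptor gene also of pericytes, which was higher by 8.06 ± 0.27 at day 4 (adjusted p = 3.20e-09), while Dcn and Lum were each at 0.67 TPM or less in the 12 libraries of the drug experiment. The 6 microglial markers summed to at most 1.74 TPM, with Cx3cr1 and C1qa at 0 in every library, and the 4 endothelial ones to at most 7.21 TPM, with Cldn5 and Cdh5 at 0. Of the endothelial ones only Kdr was tested. It was at 0.663 ± 0.119 TPM in undifferentiated cells and 5.93 ± 1.19 TPM on day 8. Its change at day 8 was 3.35 ± 0.22 (adjusted p = 2.50e-07). The part of the other cell types in the myelin values was not tested.

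Neither drug moved a myelin gene past the test. For naloxone against NC, with stage in the model, 0 of 6 members passed and 0% of the 13413 genes were called, and the same held for DAMGO against NC (0%) and for naloxone against DAMGO (0%). None of the 6 members reached an unadjusted p of 0.05 in edgeR in any of these 3 comparisons, where 1344, 325 and 245 of all genes did, and DESeq2 and limma on TPM also called 0 genes. The naloxone changes were 0.11 (95% interval -0.55 to 0.78) for Mbp, 0.12 (-0.02 to 0.25) for Cnp, 0.16 (-0.46 to 0.79) for Cldn11, -0.33 (-0.69 to 0.02) for Ugt8a and 0.18 (-0.18 to 0.55) for Myrf. Those of DAMGO were -0.04 (-0.64 to 0.56) for Mbp, 0.09 (-0.05 to 0.22) for Cnp, 0.15 (-0.50 to 0.80) for Cldn11, -0.27 (-0.69 to 0.14) for Ugt8a and -0.02 (-0.40 to 0.36) for Myrf. The intervals for Cnp are narrow, and those for the other 4 of these genes reach up to 1.74-fold (Cldn11 with DAMGO). Mag, on 0 to 20 counts a library, had wider ones, from 0.550 to 1.83-fold with naloxone and from 0.441 to 1.72-fold with DAMGO. Whether a drug acted differently in differentiating and undifferentiated cells was tested as an interaction, and 0 of 6 members and 0% of 13785 genes passed for naloxone and 0% for DAMGO. At an unadjusted p of 0.05, 0 of the 6 members and 240 and 221 of all genes passed, while DESeq2 called 2 and 0 genes, limma on log2(TPM + 1) 0 and 1, and limma on log2(TPM + 0.1) 6 and 9, no member among them.

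Stage by stage, 40 ratios of a drug library to the NC library were formed for Mbp, Cnp, Cldn11, Ugt8a and Myrf from counts scaled with the trimmed mean of M-values, and 9 had a 95% counting interval that excluded 1. These intervals hold counting error only and no variation between cultures. Mbp had none of the 9, and at day 8 its ratio was 0.980 (0.847 to 1.13) for naloxone and 0.991 (0.846 to 1.16) for DAMGO. Cnp was at 1.11 (1.06 to 1.16) with naloxone and 1.16 (1.11 to 1.21) with DAMGO at day 2, at 1.08 (1.01 to 1.17) with naloxone at day 4 and at 1.14 (1.07 to 1.21) with naloxone at day 8. Cldn11 was at 2.57 (1.31 to 5.26) with DAMGO at day 2, on 29 against 14 counts, and at 1.46 (1.02 to 2.10) with naloxone at day 4.

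Ugt8a and Myrf went opposite ways with naloxone at day 8. Ugt8a was at 0.601 (0.382 to 0.944), on 41 against 43 counts in a library of 9070533 against 5729020 estimated counts, and at 0.578 (0.327 to 0.991) with DAMGO at day 2. Myrf was at 1.50 (1.15 to 1.97) with naloxone at day 8, on 193 against 81 counts, and at 1.02 and 0.964 with naloxone and DAMGO at day 4. In these same library pairs the ratio to NC went with GC content over 13816 genes, with r across genes of 0.502 for naloxone and 0.430 for DAMGO at day 2 and 0.352 for naloxone at day 8, against -0.036 to 0.088 in the other 5 pairs. Ugt8a transcripts have 40.2% GC, in the lowest of 10 equal groups of genes by GC content, and the median ratio of that group was 0.681 with naloxone at day 8 and 0.546 with DAMGO at day 2. For the GC groups that hold Cnp and Myrf, at 54.6% and 57.4% GC, the median ratio with naloxone at day 8 was 1.09 and 1.08, and that of the Cnp group at day 2 was 1.11 with either drug. For Cldn11 it was 1.06 with DAMGO at day 2 and 0.991 with naloxone at day 4. The part of GC content in the ratios was not tested.

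**Figure D4:**
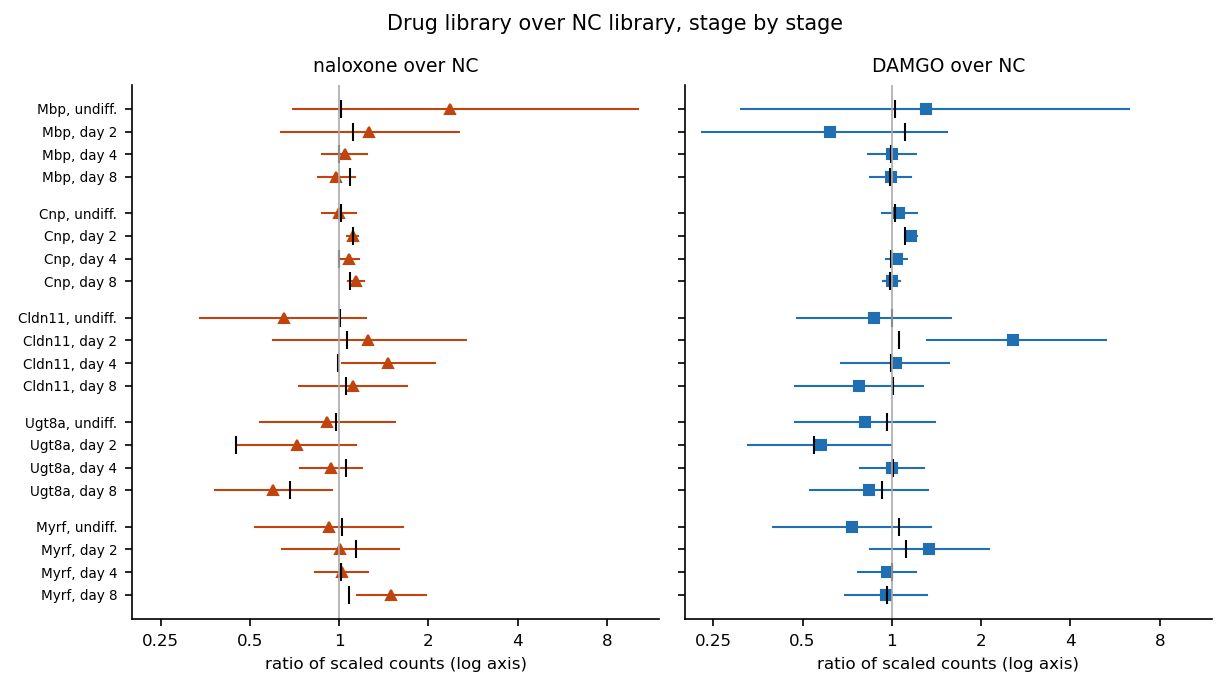
Ratio of the naloxone (left) or DAMGO (right) library to the NC library of the same stage for 5 myelin genes, on a log axis, with 95% counting intervals. Black ticks are the median ratio of genes in the same of 10 groups by GC content. Ratios of Mbp and Cnp at day 4 and day 8 lie between 0.980 and 1.14, and Cldn11 with DAMGO at day 2 is at 2.57.

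The reference libraries resembled the undifferentiated ones. At passage 8 and passage 13 Cnp was at 48.8 and 62.3 TPM, Mbp at 1.24 and 0.73 TPM, Cldn11 at 5.74 and 3.80 TPM, Myrf at 1.26 and 2.11 TPM, Opalin at 0.73 and 0.31 TPM and Ugt8a at 7.23 and 3.26 TPM. Mog had 0 and 2 counts, and Mag and Mobp had none. Cnp lay below the undifferentiated NC library in both, and Ugt8a at passage 8 lay above the 2.85 to 3.52 TPM of the undifferentiated libraries. For passage 13 against passage 8, 0 of 6 members passed and 0.0217% of 13855 genes were called, 3 genes in all, with no replicate of either library. Ugt8a and Cnp reached an unadjusted p of 0.05, Ugt8a with -1.18 ± 0.31 (adjusted p = 0.563) and Cnp with 0.33 ± 0.13 (adjusted p = 1), and DESeq2 called 4 genes, none a member.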

How the data were processed

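The 14 RNA-seq libraries were TruSeq libraries of total RNA, per the labels' protocols. The submitters' processing notes name Bowtie, RSEM and mm10, and the sources used here give no versions. The authors deposited for each gene an RSEM expected count, a TPM (which divides by a transcript length that RSEM weights by the isoforms it finds in each library) and that length, per the file headers. The expected counts were not whole for 10.4 to 13.1% of genes and were rounded here. Symbols came from GENCODE on that build for 29202 of 29713 identifiers.

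Counts were tested with edgeR 4.0.16 in R 4.3.3 (quasi-likelihood test, TMM scaling, filterByExpr, Benjamini-Hochberg adjustment over all genes tested, threshold 0.05) with stage and treatment as additive terms over 12 libraries. Its 6 residual degrees of freedom hold the noise of libraries together with drug effects that vary by stage. The model with drug by state had 4 residual degrees of freedom, and the passage model gave each reference library its own term. Medians of lists are over the tested genes. Ratios of counts have exact binomial 95% intervals. These intervals and the limit of 3 counts for a count of 0 cover counting error only and no variation between cultures. They may be too narrow even for counting error, since reads are not independent molecules. DESeq2 1.42.0 and limma 3.58.1 on log2(TPM + 1) or log2(TPM + 0.1), other size factors, no filter, stage alone, added or removed stages and each library left out were the alternatives. The code was tested on simulated data.

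The 9 members and the 12 gene lists were chosen with earlier results of these data known. Of each list up to 4 genes past the threshold in a stage comparison are named, those with the largest change and a mean of at least 5 CPM, plus Sox10, Olig1, Olig2, Nkx2-2, Gpr17, Enpp6 and Tmem98. Sox2, Nes, Vim, Fabp7, Pax6, Egr2, Dcn, Lum, Bmp4, Neu4, Tmem163, Hes1, Sox5, Cspg4, Ptprz1, Slc1a2, Tspan2 and Omg were named outside this rule, after their values were seen. Some genes of the lists that the rule selects are not reported here by name. For likeness, log2 CPM used a prior count of 0.5, and genes needed a mean of 2 CPM and a symbol other than a predicted name.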

Additional observations from a re-analysis of the deposited data

How the results depend on the processing

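Each stage change of the 6 tested members was recomputed under the alternatives. Of the values, 530 kept direction and call, 22 lost the call, 11 gained one and 7 changed sign. The number of members called at day 2 against undifferentiated cells, 2, became 1 with DESeq2, 1 with limma on log2(TPM + 1) and 1 on log2(TPM + 0.1), and ran from 1 to 3 when each library was left out. The counts of members called in the other 4 stage comparisons stayed within 1.5 times the reported count, but not the genes: for day 8 against day 4 both higher calls, Mbp and Cnp, were lost on both TPM scales, where Cldn11 was called lower. Ugt8a at day 8 against undifferentiated cells turned to -0.0219 and -0.0328 on the TPM scales (pseudocounts 1 and 0.1) and to -0.14 with the passage 8 reference added, and Mbp at day 8 against day 4 turned to -0.14 on both TPM scales. Mag at day 8 against day 4 ran from -0.37 to 0.14 over the left-out libraries and was called lower on log2(TPM + 1) alone. The causes were not tested.

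No member was called for a drug, an interaction or passage under any alternative run. The number of all genes called for passage differed between the alternatives. With each library left out, naloxone against NC ran from -0.0551 to 0.30 for Cldn11 and from -0.0177 to 0.28 for Myrf and -0.25 to 0.38 for Mag, and DAMGO against NC from -0.13 to 0.0216 for Mbp, -0.14 to 0.34 for Cldn11, -0.16 to 0.0928 for Myrf and -0.63 to 0.17 for Mag. Mag with naloxone was -0.0461 on log2(TPM + 1), -0.0654 without the day 2 libraries and -0.0551 in the differentiating libraries alone, and with DAMGO it was 0.0065 on log2(TPM + 1). Without the day 2 libraries DAMGO against NC was 0.0030 for Mbp and -0.14 for Cldn11, and for Myrf it was 0.0013 with DESeq2, 0.0166 with the passage 8 reference added and 0.0614 in the differentiating libraries alone. The interaction model, which holds the terms of both drugs, was not run with any of the 3 undifferentiated libraries of the drug experiment left out. At least 1 of its terms could not be estimated then. No paired analysis was possible because the labels give no replicate numbers, and the stage term already sets each drug library against the NC library of its stage. Depth limits Mog, Mobp and Opalin, which are not tested, and the drug comparisons of Mag.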
